A study of Homo sapiens with 9 samples.

Results

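The aminoacyl-tRNA synthetase genes of LN229 glioblastoma cells were examined: 20 genes whose enzymes charge tRNA in the cytosol and 16 whose names end in 2 and whose enzymes act in mitochondria. They were taken by gene symbol from a table of 19356 genes, and all 36 were found and passed the filter on low values. LN229 is an established human glioblastoma line. Polyadenylated RNA was sequenced from wild-type cells (WT) and from the lines B3 and C4, in which CRISPR was used to knock out ARNT2, the gene of a transcription factor of the bHLH-PAS family. Each group held 3 libraries, and all cells grew in DMEM with 5% FBS. The comparison bears on the role of ARNT2 in growth and differentiation of these tumour cells. Neither the number of founding cells of a knockout line nor the use of separate cultures for the libraries of a group is stated in the labels. The p-values therefore measure only the spread between these libraries, which may be technical, and a difference of a line from WT cannot be told apart from a difference between cell populations of LN229.

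Each synthetase joins an amino acid to its tRNA, the step that sets which amino acid a codon is read as. Human cells keep largely separate sets of these enzymes for the cytosol and for mitochondria, all encoded in the nucleus. GARS and KARS, the genes of the glycine and lysine enzymes, each serve both compartments. Many cytosolic synthetase genes are known targets of ATF4, the transcription factor of the amino acid and endoplasmic reticulum stress response, which binds C/EBP-ATF response elements.

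Because the cytosolic genes moved as a group in C4, their promoters were searched for the core of that element, TGATGNAA, on both strands (TTNCATCA on the gene's own strand when the match lies opposite), and no other motif was searched. RefSeq windows of 250 bases before to 50 after a gene's start (GRCh38.p14) were matched for 30 of the 36 genes. Those of the others, LARS, VARS, YARS, AARS2 and VARS2 among them, were not used here. A match was present in 7 of 16 cytosolic genes (7 of the 12 that were lower in C4 and 0 of the 4 that were not called there) and in 1 of 14 mitochondrial genes, against 4.46% of 27305 RefSeq genes and 3.60% of 15842 protein-coding ones. SARS, EPRS, FARSA, FARSB and WARS were lower in C4 with no match in their windows. The matches are shown because the cytosolic ones belong to genes that were lower in C4. Each is given with 30 bases on the gene's strand, 5′ to 3′, the match in capitals:
AARS: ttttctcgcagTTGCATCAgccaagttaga
CARS: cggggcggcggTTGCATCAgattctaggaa
GARS: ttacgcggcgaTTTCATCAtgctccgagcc
IARS: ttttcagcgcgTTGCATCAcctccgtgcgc
MARS: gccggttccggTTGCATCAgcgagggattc
NARS: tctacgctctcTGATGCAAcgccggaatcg
TARS: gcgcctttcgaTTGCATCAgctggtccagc
YARS2: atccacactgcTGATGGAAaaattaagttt

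Of these 8 stretches, 6 hold the same 8 letters read on the gene's strand or, in NARS, on the other. GARS differs from them within the match, as does YARS2, the single mitochondrial gene in the list. The stretch of AARS lies at chr16:70289675-70289704, its match starting at base -187 from the RefSeq start. That of CARS is at chr11:3057407-3057436 (match from -2) and that of GARS at chr7:30594834-30594863 (from -33). IARS has its own at chr9:92293692-92293721 (from -13) and MARS at chr12:57488053-57488082 (from -4). For NARS it is chr18:57621804-57621833 (from 15, after the start), for TARS chr5:33440956-33440985 (from 3), and for YARS2 chr12:32756076-32756105 (from -197). AARS, CARS, IARS, NARS and YARS2 are on the minus strand, and GARS, MARS and TARS on the plus strand. CARS, GARS and TARS have 2 RefSeq windows each, of which 1 holds the match. A match is a run of letters in a window and was not tested for binding.

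The values are log2 values that the authors scaled between libraries. They are not corrected for gene length, so levels are compared between groups within a gene. Across genes, the SD of the difference between a pair of libraries was 0.0549 to 0.073 within a group and 0.179 to 0.234 between groups. ARNT2 itself read 13.56, 13.59 and 13.58 in WT, 11.91, 11.90 and 11.86 in B3, and 12.22, 12.15 and 12.05 in C4, so the knockout groups did not overlap WT (exact two-sided permutation p = 0.1 for each line, the smallest possible with 3 against 3 libraries). Of 12 glioma and glial markers, VIM, NES, CD44, S100B, SOX2, OLIG2, EGFR, PDGFRA and FABP7 lay between 11.54 and 18.23 over the 9 libraries, and GFAP (6.61 to 6.98), AQP4 (3.91 to 3.99) and CHI3L1 (5.07 to 5.34) were low. Markers of immune, endothelial and epithelial cells lay between 1.86 and 10.99, with CD68 highest, and PTPRC, of leukocytes, and CD3E, of T cells, were below the filter at 1.86 to 2.40. Changes below are log2 differences ± SE from limma, fitted on all 9 libraries and 16457 genes, and calls were made at an adjusted p (Benjamini-Hochberg) below 0.05.

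In C4 most cytosolic synthetase genes were lower than in WT, and the mitochondrial ones were not lower as a group. Of the 20 cytosolic genes, 15 fell and 0 rose by limma's adjusted p, where 28.0% of all tested genes fell and 28.2% rose. In either direction 56.2% of all genes were called. At an unadjusted p under 0.05 the counts were 15 lower and 1 higher. The median change of the 20 was -0.31, against 0.00 for all genes tested. By at least 0.25 on the log2 scale 12 of 20 fell, against 8.60% of all genes. In 15 of 20 the 3 C4 libraries all lay below the 3 WT libraries, which held for 30.2% of all genes, and in 0 of 20 they all lay above, against 30.5%. In a bulk library, fewer cells that express a gene and less RNA per cell cannot be told apart.

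**Figure D1:**
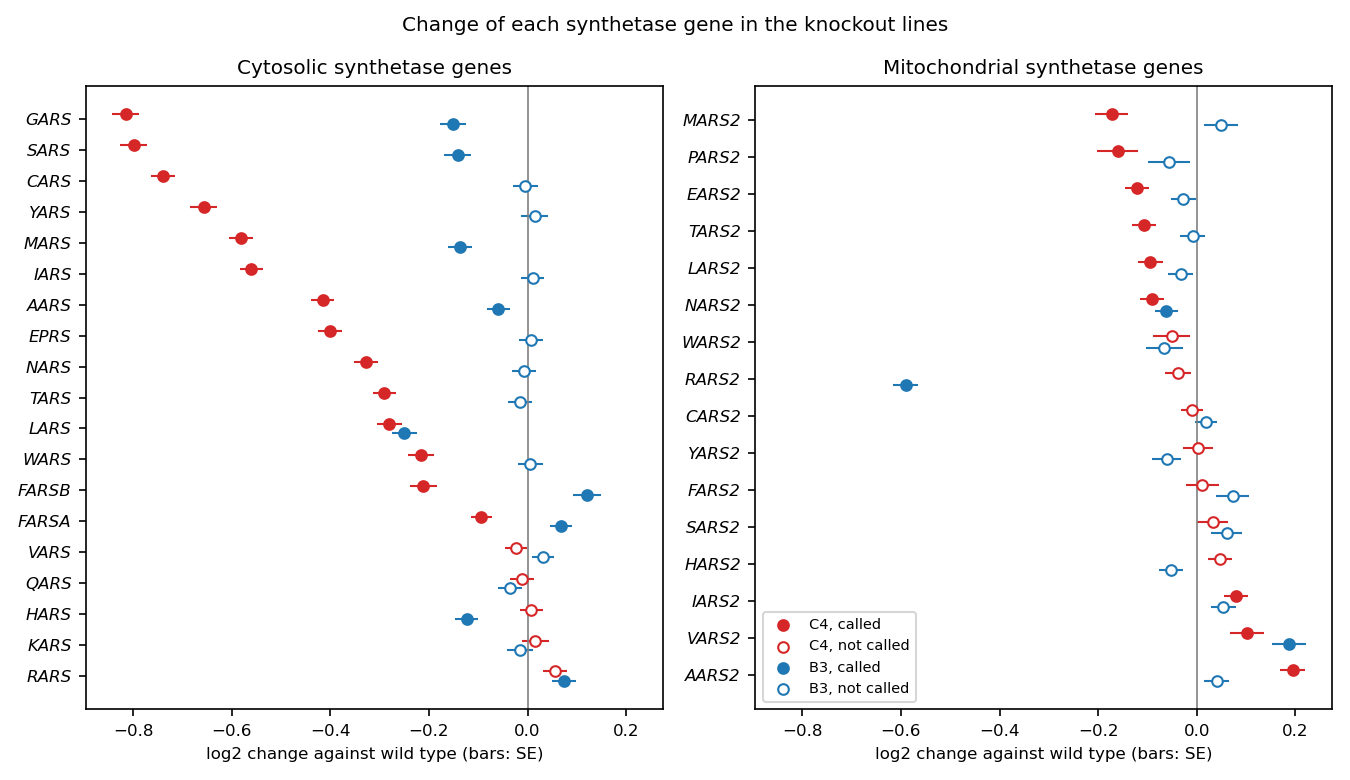
Log2 change against wild type of the cytosolic (left) and mitochondrial (right) synthetase genes that are reported by name, with bars for the SE; red is C4, blue is B3, and filled points passed limma's adjusted p of 0.05. In C4 the cytosolic genes spread from -0.82 to 0.06 and the mitochondrial genes from -0.17 to 0.19, while in B3 RARS2, at -0.59, lies apart from the rest.

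The largest decreases in C4 were those of the glycine, serine and cysteine enzymes. GARS (chromosome 7, 30594681 to 30634033, plus strand, GRCh38), the glycine synthetase gene of both compartments, had values of 15.71, 15.79 and 15.76 in WT, 15.61, 15.62 and 15.56 in B3, and 14.98, 14.90 and 14.92 in C4. The 3 groups did not overlap, and C4 was at 56.8% of WT (-0.82 ± 0.03, limma's adjusted p = 1.97e-17). SARS (chromosome 1, 109213918 to 109238169, plus strand), whose enzyme charges serine and also the tRNA of selenocysteine with serine, gave 15.66, 15.79 and 15.76 in WT, 15.62, 15.59 and 15.57 in B3, and 14.96, 14.92 and 14.93 in C4. Its C4 libraries were lowest, at 57.5% of WT (-0.80 ± 0.03, adjusted p = 5.83e-17). For CARS (chromosome 11, 3000922 to 3057613, minus strand), the cysteine synthetase gene, the values were 14.48, 14.57 and 14.56 in WT, 14.56, 14.51 and 14.53 in B3, and 13.77, 13.80 and 13.81 in C4. WT and B3 overlapped, and C4 was at 59.9% of WT (-0.74 ± 0.02, adjusted p = 2.81e-17).

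Tyrosine, methionine and isoleucine enzymes followed. YARS (chromosome 1, 32775237 to 32818153, minus strand) read 15.32, 15.41 and 15.40 in WT, 15.40, 15.41 and 15.36 in B3, and 14.76, 14.70 and 14.70 in C4, a change of -0.66 ± 0.03 in C4. MARS (chromosome 12, 57475445 to 57517569, plus strand), whose enzyme also charges the initiator tRNA, read 15.47, 15.55 and 15.53 in WT, 15.40, 15.38 and 15.35 in B3, and 14.94, 14.93 and 14.92 in C4, a change of -0.58 ± 0.02. IARS (chromosome 9, 92210207 to 92293756, minus strand) read 15.65, 15.72 and 15.68 in WT, 15.72, 15.69 and 15.68 in B3, and 15.14, 15.10 and 15.13 in C4, a change of -0.56 ± 0.02. In all 3 of these genes every C4 library lay below every WT and B3 library. In B3, MARS fell, whereas YARS and IARS overlapped WT. MARS is one of the genes whose exons overlap a neighbour's, described further on.

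The alanine, glutamate-proline and asparagine enzymes formed a middle group. AARS (chromosome 16, 70252295 to 70289543, minus strand) had 15.37, 15.40 and 15.38 in WT, 15.34, 15.35 and 15.28 in B3, and 14.96, 14.97 and 14.97 in C4 (-0.42 ± 0.02). EPRS (chromosome 1, 219968601 to 220046658, minus strand), whose single protein carries both the glutamate and the proline enzyme, had 15.67, 15.72 and 15.67 in WT, 15.69, 15.71 and 15.68 in B3, and 15.33, 15.26 and 15.27 in C4 (-0.40 ± 0.02). B3 and C4 thus differed by more than the spread of their libraries in both. NARS (chromosome 18, 57600656 to 57622213, minus strand) had 15.76, 15.78 and 15.80 in WT, 15.78, 15.77 and 15.77 in B3, and 15.50, 15.44 and 15.42 in C4 (-0.33 ± 0.02), with WT and B3 overlapping and C4 below both.

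The remaining called genes changed less. TARS, of threonine, fell by 0.29 ± 0.02 and LARS, of leucine, whose enzyme is also described as a leucine sensor of the mTORC1 pathway, fell by 0.28 ± 0.02. WARS, the tryptophan enzyme gene, which interferon gamma is known to induce, fell by 0.22 ± 0.03. FARSB and FARSA, the beta and alpha subunits of the phenylalanine enzyme, fell by 0.21 ± 0.03 and 0.09 ± 0.02.

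The other 5 cytosolic genes did not pass the test in C4. The lysine gene KARS changed by 0.02 (95% interval -0.04 to 0.07), the glutamine gene QARS by -0.01 (-0.06 to 0.04), the histidine gene HARS by 0.01 (-0.04 to 0.06) and the valine gene VARS by -0.02 (-0.07 to 0.02). The arginine gene RARS was at 0.06 (0.00 to 0.11, adjusted p = 0.0586). RARS was called higher with every library at the same summed antilog, with quantile normalization, without WT replicate 3 and without C4 replicate 3, in a range of adjusted p from 0.00396 to 0.338 over the alternatives. None of these intervals reaches the change of FARSB, -0.21. The change of FARSA, which was called, was smaller at -0.09, and its interval (-0.14 to -0.05) overlapped those of QARS and VARS. The promoter windows of KARS, QARS, HARS and RARS held no match to TGATGNAA, which says only that these letters are not in those windows.

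**Figure D2:**
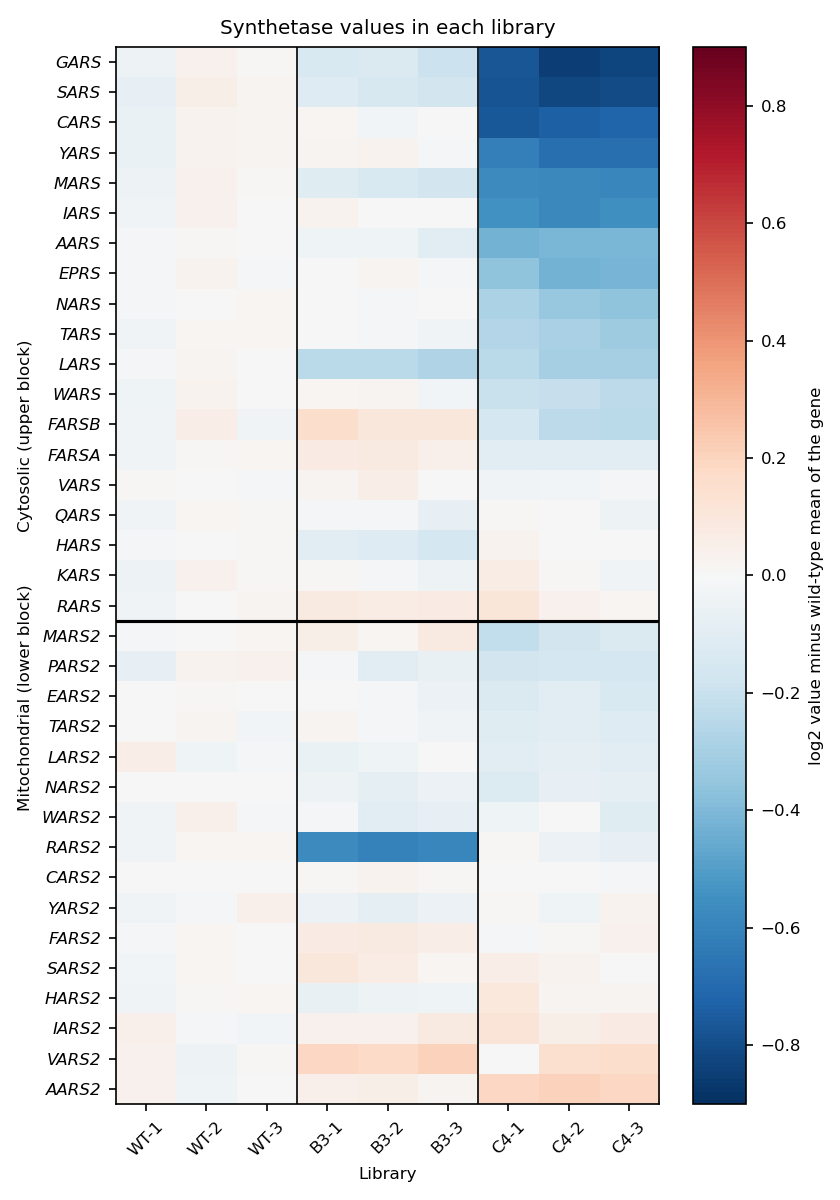
Each row is a synthetase gene reported by name and each column a library; the colour gives the log2 value minus the gene's mean over the wild-type libraries. The 3 C4 columns are blue over most of the cytosolic block, RARS2 is blue in the 3 B3 columns, and LARS is blue in both lines.

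By library, the cytosolic median deviated from the WT mean by -0.28, -0.32 and -0.34 in the 3 C4 libraries and by 0.00, -0.01 and -0.02 in the 3 B3 libraries, while the WT libraries lay between -0.03 and 0.03. The mitochondrial median lay between -0.04 and 0.00 in all 6 knockout libraries. Each C4 library thus had a cytosolic median below those of all WT and B3 libraries.

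Mitochondrial synthetase genes changed in both directions in C4, by small amounts. Of the 16 genes, 3 rose and 6 fell, with a median change of -0.02. Of all genes 28.2% rose and 28.0% fell, 56.2% in either direction, so the share called was near that of all genes. By limma 0 of the 16 were called with a change of 0.25 or more in either direction (all genes: 6.57% higher and 8.60% lower). At an unadjusted p under 0.05 the counts were again 3 higher and 6 lower. In 7 of 16 all C4 libraries lay below all WT libraries and in 3 above (all genes: 30.2% and 30.5%). The alanine gene AARS2 (chromosome 6, 44299654 to 44313326, minus strand) rose from 12.66, 12.58 and 12.62 in WT to 12.81, 12.83 and 12.81 in C4 (0.19 ± 0.03), without overlap. VARS2 rose by 0.10 ± 0.03 and IARS2 by 0.08 ± 0.02, 2 small changes of which that of VARS2 came with overlapping groups. The VARS2 call ended without WT replicate 2, C4 replicate 2 or C4 replicate 3, and that of IARS2 without WT replicate 3. The methionine gene MARS2 fell by 0.17 ± 0.03 and the proline gene PARS2 by 0.16 ± 0.04. EARS2, whose enzyme loads glutamate on its own tRNA and, before an amidotransferase completes the step, on that of glutamine, fell by 0.12 ± 0.02. TARS2, LARS2 and NARS2 fell by 0.11 ± 0.03, 0.09 ± 0.03 and 0.09 ± 0.02. The 7 genes not called, CARS2, FARS2, HARS2, RARS2, SARS2, WARS2 and YARS2, lay between -0.05 and 0.05.

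In B3 the synthetase genes as a group stayed close to WT, and a few members moved. Of the 20 cytosolic genes 3 rose and 6 fell, against 23.2% and 24.6% of all tested genes (47.9% in either direction), and of the 16 mitochondrial genes 1 rose and 2 fell. In 3 cytosolic genes all B3 libraries lay above all WT libraries and in 6 below, against 26.4% and 27.4% of all genes. The medians were -0.01 for the cytosolic and -0.02 for the mitochondrial genes. The mitochondrial count depends on scaling and on a library: 6 genes were called with every library at the same summed antilog (5 higher, 1 lower) and 6 without WT replicate 1 (2 higher, 4 lower), against 3 as fitted here.

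RARS2 held the largest synthetase change in B3. This gene (chromosome 6, 87514378 to 87590003, minus strand), whose enzyme charges arginine in mitochondria, read 12.98, 13.03 and 13.03 in WT, 12.44, 12.40 and 12.43 in B3, and 13.02, 12.96 and 12.94 in C4. B3 stood below both other groups, at 66.4% of WT (-0.59 ± 0.03, limma's adjusted p = 1.26e-14), and WT and C4 overlapped (-0.04 ± 0.03, not called). LARS (chromosome 5, 146113038 to 146182660, minus strand) read 16.22, 16.26 and 16.23 in WT, 16.00, 15.99 and 15.97 in B3, and 15.99, 15.94 and 15.93 in C4. It fell by 0.25 ± 0.02 in B3 (adjusted p = 1.72e-08), the largest change of a cytosolic gene there, and its B3 and C4 libraries overlapped. LARS and RARS2 were the synthetases whose decrease in B3 reached 0.25, as did 6.49% of all genes, and none rose by as much, as 2.82% of all genes did. The direct comparison of the lines gave -0.03 (95% interval -0.08 to 0.02) for LARS.

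VARS2 (chromosome 6, 30908242 to 30926459, plus strand), the mitochondrial valine gene, rose in B3. Its values were 12.31, 12.23 and 12.29 in WT, 12.46, 12.45 and 12.49 in B3, and 12.28, 12.43 and 12.44 in C4 (0.19 ± 0.03 in B3). C4 replicate 1 lay among the WT libraries, and the other C4 libraries between WT and B3. GARS, SARS, MARS and HARS fell in B3 by 0.15 ± 0.03, 0.14 ± 0.03, 0.14 ± 0.02 and 0.12 ± 0.02. AARS fell by 0.06 ± 0.02 and NARS2 by 0.06 ± 0.02. The AARS call (adjusted p = 0.0392) ended in 12 of 20 alternatives and the NARS2 call (adjusted p = 0.0342) in 8 of 20. The cytosolic genes not called in B3 lay between -0.04 and 0.03 and the mitochondrial ones between -0.07 and 0.07.

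The phenylalanine subunit genes were called in opposite directions in the lines. FARSA (chromosome 19, 12922479 to 12934037, minus strand) read 14.50, 14.54 and 14.55 in WT, 14.61, 14.61 and 14.57 in B3, and 14.43, 14.44 and 14.44 in C4. FARSB (chromosome 2, 222570536 to 222656337, minus strand) read 13.32, 13.41 and 13.32 in WT, 13.51, 13.46 and 13.46 in B3, and 13.20, 13.12 and 13.11 in C4. For both subunits the B3 libraries lay above and the C4 libraries below all WT libraries. B3 was higher by 0.07 ± 0.02 for FARSA and 0.12 ± 0.03 for FARSB. The FARSA call in B3 (adjusted p = 0.0142, 0.000484 to 0.0594 over the alternatives) ended without B3 replicate 1 and without B3 replicate 2. RARS also rose in B3, by 0.07 ± 0.02, and that call (adjusted p = 0.0164) ended without WT replicate 1 and without B3 replicate 1.

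Set directly against B3, C4 was lower in 15 of 20 cytosolic genes and higher in 1, HARS (0.13 ± 0.02), where 27.8% of all tested genes were lower and 28.6% higher (56.4% in either direction). By at least 0.25, 12 were lower and 0 higher (all genes: 7.66% and 8.63%), and in 15 of 20 the C4 libraries lay below all B3 libraries and in 1 above (all genes: 30.9% and 31.4%). This comparison shares its C4 libraries with that against WT. The decreases against B3 reached -0.74 ± 0.02 for CARS, -0.67 ± 0.03 for YARS, -0.66 ± 0.03 for GARS and -0.66 ± 0.03 for SARS. VARS was called by a small margin (-0.05 ± 0.02, adjusted p = 0.0443), and that call ended in 13 of 20 alternatives. LARS, KARS, QARS and RARS were not called between the lines. Of the mitochondrial genes 3 were higher in C4 than in B3 (RARS2 by 0.55 ± 0.03, AARS2 by 0.15 ± 0.03 and HARS2 by 0.10 ± 0.02) and 6 were lower. Of the 6, the LARS2 call ended in 10 of 20 alternatives and those of VARS2 and PARS2 in 7 each.

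Pairing each cytosolic gene with the mitochondrial gene for the same amino acid gave 17 pairings, in which EPRS and FARS2 each appear in 2. In C4 the change of the cytosolic gene lay below that of its mitochondrial counterpart in 16 of 17 pairings, by a median of -0.24. The widest gap was that of the serine pair, where SARS changed by -0.80 and SARS2 by 0.03. CARS and CARS2 stood at -0.74 and -0.01, YARS and YARS2 at -0.66 and 0.00, and IARS and IARS2 at -0.56 and 0.08. In the alanine pair both genes were called and moved apart, AARS to -0.42 and AARS2 to 0.19. The arginine pair was the exception, with RARS at 0.06 and RARS2 at -0.04, neither called. In B3 the cytosolic change was the lower one in 10 of 17 pairings, with a median difference of -0.01. Over the B3 pairings the highest difference was again that of arginine, 0.66, where RARS2 fell. These pairings are a description and were given no test.

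**Figure D3:**
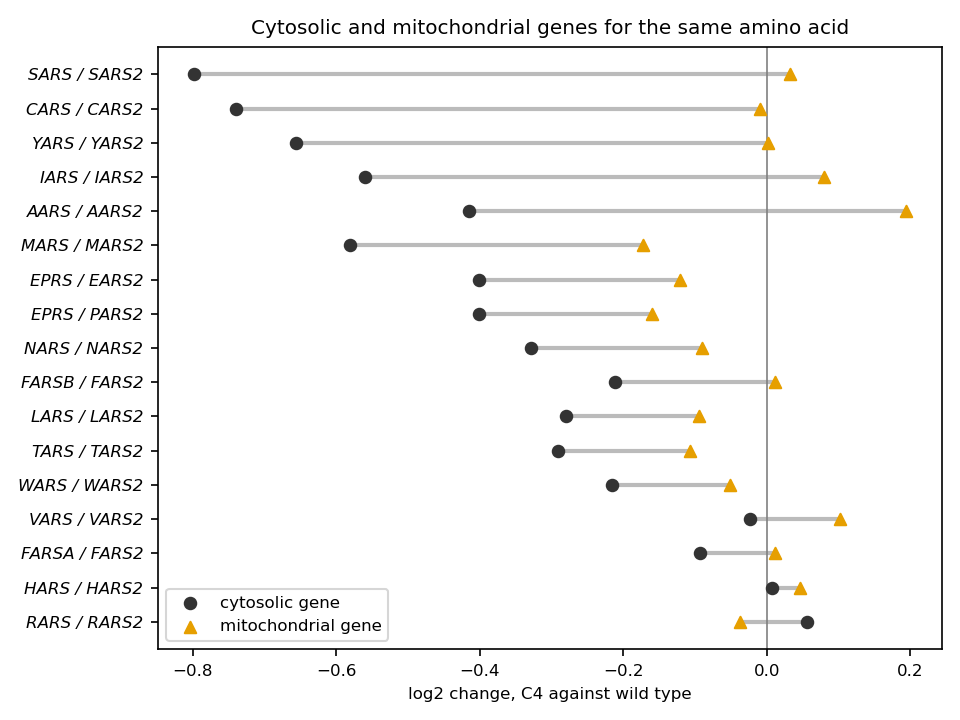
Log2 change in C4 against wild type of the cytosolic gene (circle) and the mitochondrial gene (triangle) of each of 17 pairings by amino acid, sorted by the difference. The circle lies left of the triangle in 16 of 17, and RARS / RARS2 is the exception.

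The multi-synthetase complex is a particle in which 8 of the cytosolic enzymes are held together by scaffold proteins. Of their genes 5 fell in C4 (MARS, IARS, EPRS and LARS among them) and 3 were not called (KARS, QARS and RARS), with a median of -0.34, where 28.0% of all tested genes fell and 56.2% were called in either direction. The scaffold genes AIMP1, AIMP2 and EEF1E1 changed by -0.16 ± 0.02, -0.03 ± 0.03 and -0.12 ± 0.05 in C4, of which that of AIMP1 passed the test. Synthetases also fall into classes I and II by the fold of their catalytic domain. In C4, 6 of 9 class I and 8 of 10 class II cytosolic genes fell, with medians of -0.28 and -0.31, against 28.0% of all tested genes. EPRS, whose protein holds a domain of each class, was counted in neither.

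Some synthetase genes lay among neighbours that had changed as well. For each synthetase the median change of the other tested genes within 5 Mb was computed as a description, with positions from GENCODE release 29 for 92.6% of the tested genes. Over 15236 genes, 1% of such neighbour medians lay below -0.28 in C4 and below -0.21 in B3. In C4 their upper quartile was 0.026, and 1% lay above 0.0925. MARS2 and FARSB, on chromosome 2, had neighbour medians of -0.12 and -0.09 in C4. For 13 of the cytosolic genes lower in C4 the neighbour median lay between -0.01 and 0.09, and GARS, SARS and CARS were 0.84, 0.81 and 0.79 below their neighbours. LARS was 0.37 below its neighbours, whose median, 0.0933, was among the highest 1%. HARS and KARS, not called in C4, had neighbour medians of 0.0933 and 0.0738.

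In B3, RARS2 had 34 neighbours with a median of -0.45, of which 28 fell and 0 rose by limma's adjusted p. RARS2 at -0.59 was 0.14 below them. ORC3, a subunit gene of the origin recognition complex whose start lies 64 bases from that of RARS2 on the opposite strand, changed by -0.36 in B3 and 0.00 in C4. GARS and MARS had neighbour medians of -0.14 and -0.13 in B3, within 0.01 of their own changes of -0.15 and -0.14. Neighbours of YARS2 had a median of -0.13, and YARS2 itself was at -0.06 (not called). LARS, at -0.25, stood 0.23 below neighbours with a median of -0.02, and SARS, at -0.14, stood 0.17 below neighbours at 0.03. What sets the regional values was not tested.

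**Figure D4:**
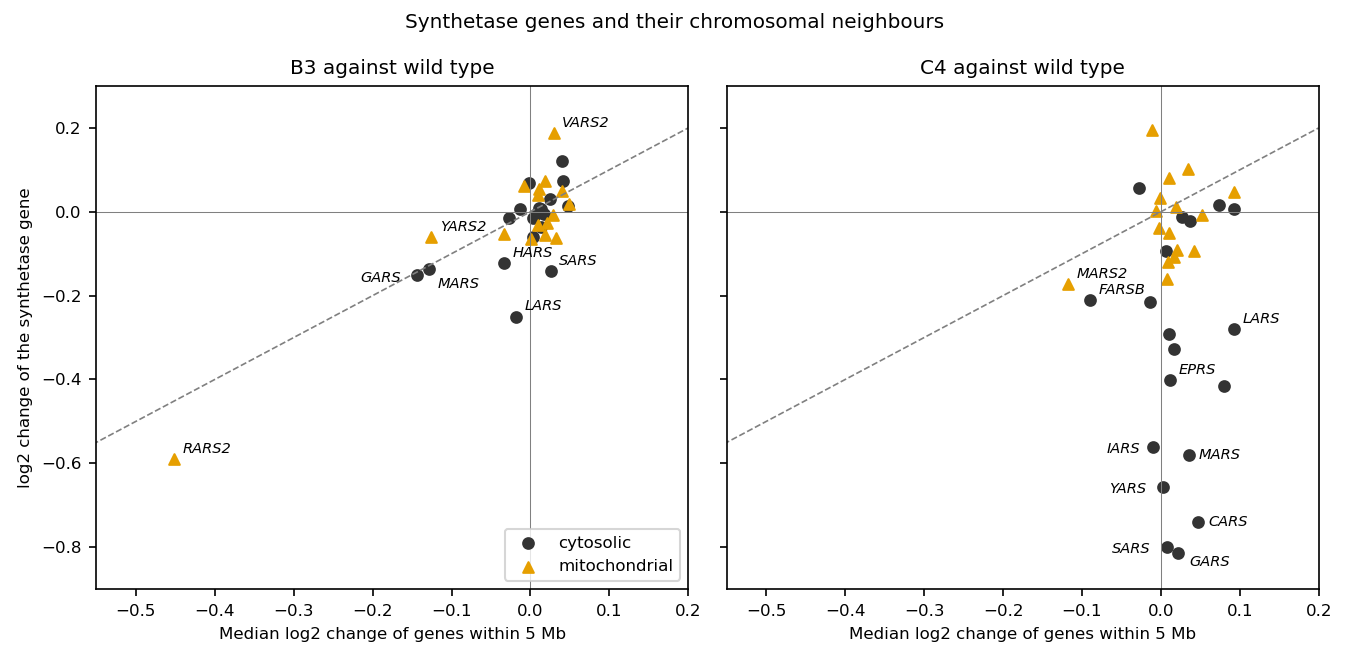
Log2 change of each synthetase gene (vertical axis) against the median log2 change of the other tested genes within 5 Mb (horizontal axis) in B3 (left) and C4 (right); circles are cytosolic and triangles mitochondrial genes reported by name, and the dashed line marks equal values. GARS and MARS in B3 lie near the line, away from 0, RARS2 in B3 lies 0.14 below it, whereas SARS, CARS, YARS and GARS in C4 lie far below it.

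Some synthetase genes share exon bases with other genes, and since no source used here states that strand was used in counting, reads of the shared stretches cannot be assigned. MARS shares 519 of its 7028 exonic bases with ARHGAP9 and 355 with DDIT3, both on the opposite strand. DDIT3, a stress transcription factor gene, fell by 1.39 ± 0.04 in C4 and by 0.70 ± 0.04 in B3. The part of these genes in the change of MARS was not tested. HARS and HARS2 lie head to head on chromosome 5 and share 437 bases. In B3 they changed by -0.12 (called) and -0.05 (not called), and in C4 by 0.01 and 0.05 (neither called). VARS2 shares 1858 of its 8448 exonic bases with GTF2H4 on the same strand, and SARS2 shares 1492 of its 3231 with AC011455.2 on the same strand, so the values of both genes are uncertain, that of SARS2 in the serine pair included. EPRS and IARS2 lie side by side on chromosome 1, EPRS ending at 220046658 and IARS2 starting at 220094102, and in C4 the first fell by 0.40 while the second rose by 0.08.

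Companion genes were counted from lists of the pathway, which were drawn up with earlier results of these data known. Of 29 genes of the ATF4 axis, that is ATF4, its partner factors and known amino acid response targets, 28 fell and 0 rose in C4 (28 lower and 0 higher at an unadjusted p under 0.05 by limma), with a median of -0.78. Of all tested genes 28.0% fell and 28.2% rose there. ATF4 itself read 16.11, 16.23 and 16.21 in WT, 16.04, 15.99 and 16.02 in B3, and 15.18, 15.16 and 15.17 in C4, a change of -1.01 ± 0.03 in C4 and -0.17 ± 0.03 in B3. CHAC1, a glutathione-degrading enzyme gene, STC2, a secreted glycoprotein gene, and ASNS, the asparagine synthetase gene, were at -2.25 ± 0.03, -1.85 ± 0.03 and -1.64 ± 0.03 in C4. In B3, 6 of the 29 rose and 14 fell, with a median of -0.05, where 23.2% of all tested genes rose and 24.6% fell. DDIT3 and TRIB3 were at -0.70 ± 0.04 and -0.35 ± 0.03 in B3. The cytosolic synthetases and the ATF4 axis were thus both lower in C4, and their relation was not tested. Of 9 genes of the eIF2alpha step upstream of ATF4, which are its kinases, phosphatase subunits, eIF2alpha itself (EIF2S1) and the kinase regulators GCN1 and IMPACT, 4 rose and 3 fell in C4, against 28.2% and 28.0% of all genes. EIF2AK4, the kinase that senses uncharged tRNA, rose by 0.18 ± 0.02 in C4 and by 0.10 ± 0.02 in B3. EIF2AK2, another of the kinases, rose by 0.23 ± 0.03 in C4 and by 0.14 ± 0.03 in B3. PPP1R15B, a phosphatase subunit gene, fell by 0.25 ± 0.03 in C4. Of the 9 genes, 2 rose and 3 fell in B3, against 23.2% and 24.6% of all tested genes.

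Interferon response genes moved the other way from WARS in C4. Of 14 genes 13 rose and 0 fell (0 lower at an unadjusted p under 0.05 by limma), with a median of 0.39. Of all tested genes 28.2% rose and 28.0% fell in C4. ISG15, IFIT1 and IRF9 rose by 0.87 ± 0.05, 0.69 ± 0.04 and 0.63 ± 0.03. These genes rose in B3 too, by 0.57 ± 0.05, 0.35 ± 0.04 and 0.32 ± 0.03. Of the 14, however, 6 rose and 5 fell in B3, with a median of 0.03. Of all tested genes 23.2% rose and 24.6% fell in B3. WARS, the interferon-inducible member of the synthetases, read 16.30, 16.37 and 16.34 in WT, 16.35, 16.36 and 16.31 in B3, and 16.13, 16.13 and 16.10 in C4, lowest in each C4 library.

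Among genes that handle tRNA before and after charging, 4 of 18 processing and export genes rose and 8 fell in C4, with a median of -0.02, where 28.2% of all genes rose and 28.0% fell (56.2% called in either direction). XPOT, the nuclear export receptor of tRNA, fell by 0.48 ± 0.02 in C4 and 0.24 ± 0.02 in B3. TRNT1, which adds the CCA end to which amino acids are joined, fell by 0.36 ± 0.03 in C4, and TSEN15, a tRNA splicing endonuclease subunit gene, fell by 0.25 ± 0.03. Of the cytosolic elongation factor genes, 6 of 6 fell and 0 rose in C4 (0 higher at an unadjusted p under 0.05 by limma). EEF1A2, EEF1B2 and EEF1D were at -1.08 ± 0.04, -0.48 ± 0.03 and -0.40 ± 0.03. In B3, 4 of 6 fell, EEF1A2 and EEF1A1 by 1.01 ± 0.04 and 0.50 ± 0.06, where 24.6% of all tested genes fell (47.9% called in either direction). EEF1A1 has many near-identical pseudogene copies that can share its reads, so its value is uncertain.

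Of the mitochondrial translation factors 1 of 9 rose and 5 fell in C4 (all genes: 28.2% and 28.0%, 56.2% in either direction), with a median of -0.10, from MTRF1 at -0.18 ± 0.04 to MTIF3 at 0.17 ± 0.04. Of the 4 genes of the amidotransferase that completes glutamine tRNA and of the formyltransferase of the initiator tRNA, 3 fell in C4, MTFMT, GATC and GATB, by 0.09 ± 0.03, 0.08 ± 0.03 and 0.07 ± 0.03. Of 7 tested genes of other synthetase-like and editing factors, 1 rose and 1 fell in C4. The latter, SEPSECS, which completes the selenocysteine tRNA that SARS first charges, fell by 0.22 ± 0.03.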

How the data were processed

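Polyadenylated RNA of 9 libraries was measured. The submitters' processing notes name DESeq2, Subread 1.6.3, STAR 2.7.3a and build hg38, without their roles. The deposited table holds log2 values that the authors name normalized. Low values hardly vary between libraries, so changes of weak genes may be understated. Read depth is unknown. A filter on the mean antilog (10 or more) left 16457 of 19356 genes, which were tested with limma 3.58.1 (R 4.3.3), an intensity trend, a coefficient per group and all 9 libraries, two-sided, with Benjamini-Hochberg adjustment over all of them and a threshold of 0.05. The fitting was checked on simulated data. The members, gene lists and tests were chosen with earlier results of these data known, and the step of 0.25, the intervals, the pairings and the promoter search were added later. Counts cover all 36 genes, and 1 of them is not reported here by name or value. Values in every library are given for the 10 with the largest changes in C4 (less the unreported gene), the 5 in B3, those called in opposite directions and, chosen after its values were seen, WARS; AARS2 is given for WT and C4. Companion lists name up to 3 genes per line among those called, and ORC3, AIMP2, EEF1E1 and EIF2AK4 in C4 were named after their values were seen. Positions are from GENCODE release 29 (GRCh38) and promoters from RefSeq (GRCh38.p14).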

Additional observations from a re-analysis of the deposited data

Results flagged for a closer look

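The change against WT differed between C4 and B3 in 25 of the 36 synthetase genes by limma's direct comparison of the lines at an adjusted p under 0.05, given here as C4 minus B3 on the log2 scale; 56.4% of all tested genes were called in that comparison. Among the cytosolic genes reported by name the differences were -0.74 for CARS, -0.67 for YARS, -0.66 for GARS, -0.66 for SARS, -0.57 for IARS, -0.44 for MARS, -0.41 for EPRS, -0.36 for AARS, -0.33 for FARSB, -0.32 for NARS, -0.28 for TARS, -0.22 for WARS, -0.16 for FARSA, -0.054 for VARS and 0.13 for HARS. Among mitochondrial genes they were 0.55 for RARS2, 0.15 for AARS2, 0.10 for HARS2, -0.062 for LARS2, -0.085 for VARS2, -0.094 for EARS2, -0.10 for TARS2, -0.10 for PARS2 and -0.22 for MARS2. The calls of VARS, LARS2, VARS2 and PARS2 ended in 13, 10, 7 and 7 of 20 alternatives. The groups hold 3 libraries each, too few to look for single libraries that stand apart.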

How the results depend on the processing

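Each result was recomputed under 20 alternatives: other filters, pseudocounts, scalings and moderation, a fit of the compared groups alone, a replicate block, a threshold of 0.01 and leaving out each library. All 15 cytosolic genes called lower in C4 kept their call in each of the 20. The cytosolic count ranged from 15 to 16 without single libraries in C4 against WT, from 6 to 9 in B3 against WT and from 15 to 16 between the lines, and the mitochondrial count from 8 to 9, from 2 to 6 and from 6 to 9. The mitochondrial count in B3, 3 as fitted here, was 6 with every library at the same summed antilog and 5 with quantile normalization; the cause was not tested. That equal-total scaling moved the share of called genes that were higher from 48.5% to 64.2% in B3 and from 50.2% to 61.5% in C4, and the median of all genes by 0.03 in each. No called synthetase changed its direction. Replicate numbers did not mark shared libraries: the correlations of deviations between same-numbered libraries lay between -0.229 and 0.016. With the replicate block, 15 cytosolic and 9 mitochondrial genes were called in C4 against WT.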
